A study of Mus musculus with 4 samples.

Results

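The genes described here are the 59 autosomal protein-coding genes named Zbtb, Zscan or Zkscan and a number, out of 21350 autosomal protein-coding genes in the mouse annotation. They were taken by symbol alone from GENCODE vM1, which uses NCBIM37 (mm9), and comprised 35 Zbtb, 15 Zscan and 9 Zkscan genes. They encode proteins with C2H2 zinc fingers, small folds held by a zinc ion between paired cysteines and histidines, which are arranged in tandem and usually bind DNA. In Zbtb proteins the fingers follow a BTB domain, and in Zscan proteins a SCAN domain, both of which let proteins pair with each other. Zkscan proteins have a SCAN domain and, in many cases, a KRAB domain. KRAB domains recruit the co-repressor Trim28 and with it enzymes that deposit H3K9me3, the trimethylated lysine 9 of histone H3 that marks silenced chromatin. H3K36me3, trimethylated lysine 36, is laid down by Setd2 along transcribed gene bodies, and the 2 marks meet over the exons that encode fingers in many zinc finger genes.

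The study carried out chromatin immunoprecipitation and sequencing for both marks in mouse embryonic stem (ES) cells of strain 129S1/SvImJ at a passage below 20. The cells were either WT or targeted H3.3 G34R cells, in which 1 H3f3a allele was replaced by a minigene for H3.3, a variant of histone H3, with arginine in place of glycine 34. The endogenous H3f3a promoter drove this minigene, and H3f3b was WT. There was 1 library for each of the 4 combinations of mark and cell type and the number of G34R clones behind them is not given in the sources used here. Each mark came as 1 list of enriched regions, in which a region had passed the threshold in WT or in G34R cells, so that no value per cell type, no depth and no error between replicates could be given.

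As both lists are free of read values, they were set against markers chosen with earlier results of these data known. H3K36me3, in 35.3% of all autosomal protein-coding genes, was in 10 of 10 ES cell genes, among them Pou5f1, Nanog and Sox2, and in 0 of 10 genes of other cell types such as Alb and Krt5. H3K9me3, in 41.4% of all genes, was in 2 and 5 of them. The lists held 31593 H3K36me3 and 32502 H3K9me3 regions, none shorter than 600 bp. Percentages of genes carry exact (Clopper-Pearson) 95% intervals, which cover counting of genes only. No test was made between families, because genes are not replicates of a condition.

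Of the 59 genes, 29 held an H3K36me3 region (49.2%, interval 35.9 to 62.5), compared with 35.3% of all autosomal protein-coding genes. An H3K9me3 region lay in 22 (37.3%, 25.04 to 50.9), compared with 41.4% of all genes. Both marks were present in 7 (11.9%, 4.91 to 22.9, against 12.6% of all genes), and neither in 15 (25.4%, against 35.9%). Thus 22 genes held H3K36me3 alone and 15 H3K9me3 alone. The 355 autosomal Zfp genes, the large class of zinc finger genes of which many encode KRAB domains, held both marks in 93 cases (26.2%, 21.7 to 31.1). The difference was not tested.

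The families were also described one by one. H3K36me3 was found in 19 of 35 Zbtb genes (54.3%, 36.6 to 71.2), 5 of 15 Zscan genes (33.3%, 11.8 to 61.6) and 5 of 9 Zkscan genes (55.6%, 21.2 to 86.3). H3K9me3 was found in 13 Zbtb genes (37.1%, 21.5 to 55.1), 5 Zscan genes (33.3%, 11.8 to 61.6) and 4 Zkscan genes (44.4%, 13.7 to 78.8). Both marks were present in 3 Zbtb, 2 Zscan and 2 Zkscan genes, or 8.57%, 13.3% and 22.2%. Genes without a region of either mark numbered 6 Zbtb, 7 Zscan and 2 Zkscan genes. These were 17.1%, 46.7% and 22.2% of the families. With regions of at least 1 kb alone, H3K9me3 was in 8 Zbtb and 3 Zscan genes and both marks in 0 and 1, and with whole regions inside the gene H3K9me3 was in 2 Zkscan genes. Of the Zscan genes 5 are near-identical copies of Zscan4, none with a region. With these counted as 1 gene, H3K36me3 and H3K9me3 were each in 5 of 11 Zscan genes (45.5%, 16.7 to 76.6) and neither mark in 3 (27.3%, down from 46.7%).

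**Figure D1:**
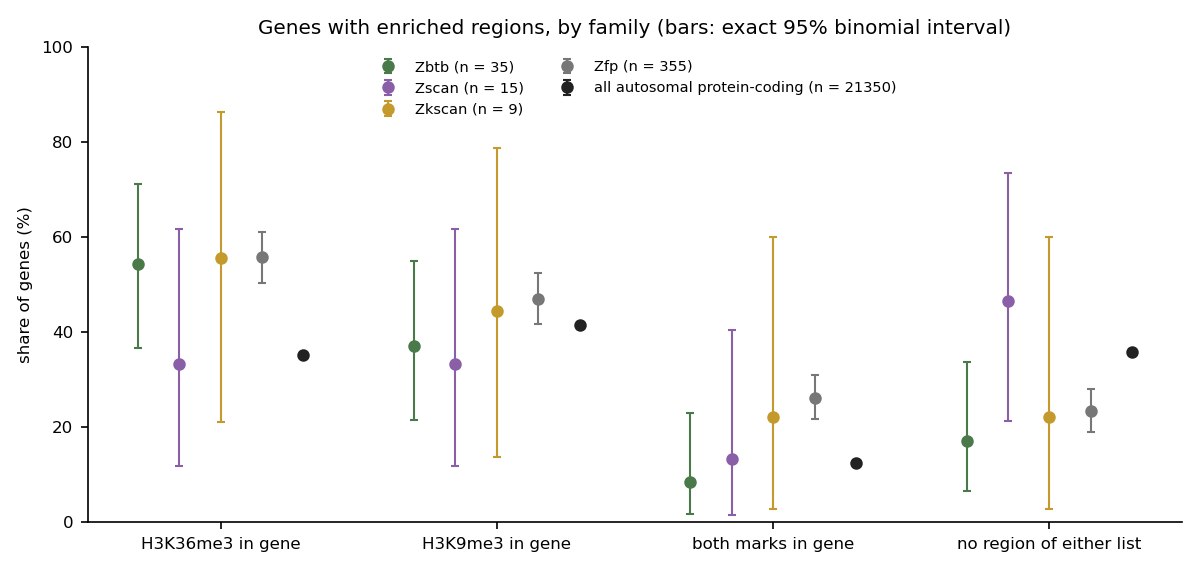
Share of genes (%) with a region of each mark, of both and of neither, for the 3 families, Zfp genes and all autosomal protein-coding genes. Points are shares and bars are exact 95% intervals over genes. Zscan genes have the largest share without a region (46.7%), and the intervals are widest for the 9 Zkscan genes.

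As gene length differed between the families, the shares were also taken within classes of length. The median gene spanned 20661 bp for Zbtb, 10164 bp for Zscan and 17189 bp for Zkscan, against 15573 bp for all genes. Below 10 kb, 7 of 17 members held H3K36me3 (21.5% of all genes of that length) and 2 of 17 held H3K9me3 (22.1%). In this class H3K36me3 was in 5 of 8 Zbtb genes and 1 of 7 Zscan genes, 5 of the latter being Zscan4 copies. From 10 to 20 kb the counts were 9 and 7 of 19 (46.8% and 34.5% of all genes), and from 20 to 50 kb they were 11 and 8 of 17 (48.5% and 48.1%). At 50 kb or more, where all 6 members were Zbtb genes, H3K36me3 was in 2 and H3K9me3 in 5 (37.8% and 75.3% of all genes). Among the members, as among all genes, H3K9me3 was thus more frequent with each class of length.

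The families were also compared by covered length. H3K36me3 took up 3.88% of the 200 bp bins of Zbtb genes, 15.1% of those of Zscan genes and 18.02% of those of Zkscan genes, compared with 5.96% over all genes. For H3K9me3 the shares were 3.33%, 8.44% and 3.89%, compared with 3.53%. Single genes weighed heavily in these sums. Zbtb20, a regulator of brain and liver development, made up 766722 bp of the Zbtb length, and without it the Zbtb shares were 6.27% for H3K36me3 and 4.89% for H3K9me3. Both were then above those of all genes, but this depended on the gene left out. Without Zbtb7c the Zbtb share in H3K9me3 was 2.34%, without Zbtb16 it was 2.67% and without Zbtb7c, Zbtb16 and Zbtb20 it was 2.09%. The corresponding shares in H3K36me3 were 4.64%, 4.27% and 10.6%. Without Zkscan17 the Zkscan share in H3K36me3 was 10.1%, below that of Zscan genes, which was itself 12.6% without Zscan20. Of the 841 Zscan bins, 119 belong to the Zscan4 copies, which held no region. Leaving these copies out, which was not done here, could only raise the Zscan shares.

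**Figure D2:**
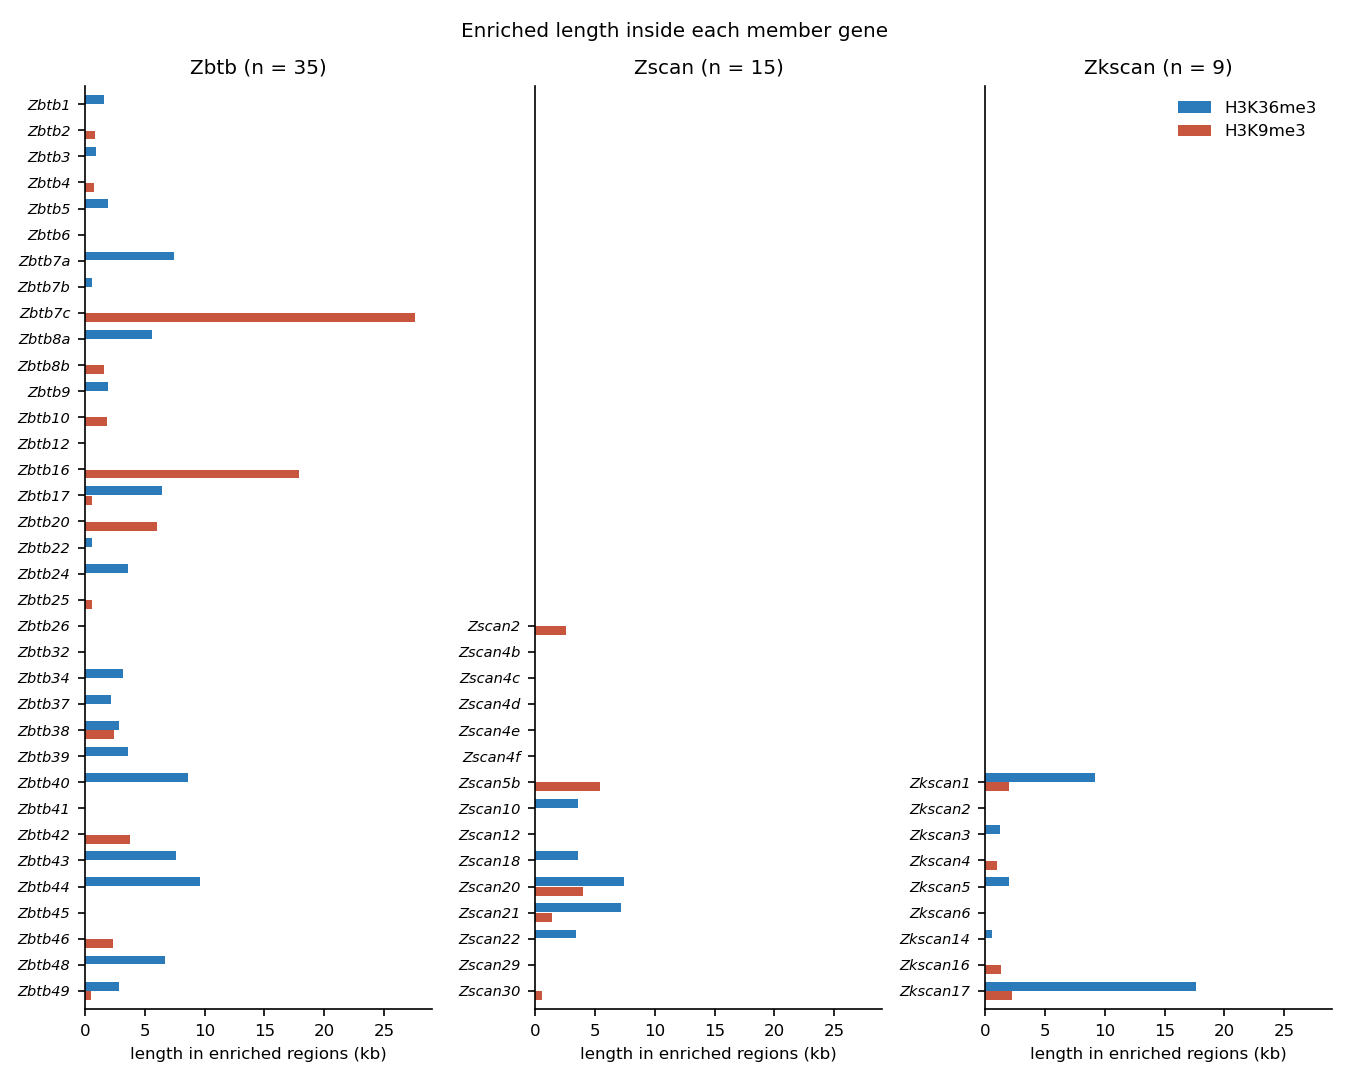
Length inside enriched regions (kb) for each of the 59 genes, in 3 panels by family, with blue bars for H3K36me3 and red bars for H3K9me3. Zbtb7c and Zbtb16 carry the longest H3K9me3 bars, 27.6 and 17.9 kb, and no H3K36me3, while Zkscan17 carries the longest H3K36me3 bar, 17.6 kb.

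The fingers that the results turn on are shown first. The coding DNA of 1 finger is given for genes with H3K9me3, with H3K36me3, with both and with neither mark over this sequence. Each is written 5′ to 3′ on the coding strand of NCBIM37, and the capitals are the codons of the paired cysteines and histidines matched by the C2H2 pattern. The finger of Zscan20 lay in both lists.
Zscan20 (chr4:128263616-128263678, minus strand): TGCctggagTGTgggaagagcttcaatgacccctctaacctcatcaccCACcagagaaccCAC
The following 3 lay in the H3K9me3 list alone.
Zscan2 (chr7:88020088-88020150, plus strand): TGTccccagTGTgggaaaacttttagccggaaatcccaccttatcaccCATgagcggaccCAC
Zkscan4 (chr13:21576426-21576488, plus strand): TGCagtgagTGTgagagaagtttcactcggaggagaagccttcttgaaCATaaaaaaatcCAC
Zbtb2 (chr10:5977282-5977344, plus strand): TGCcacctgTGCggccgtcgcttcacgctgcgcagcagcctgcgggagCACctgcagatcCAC
A further 4 lay in the H3K36me3 list alone.
Zkscan1 (chr5:138542153-138542215, plus strand): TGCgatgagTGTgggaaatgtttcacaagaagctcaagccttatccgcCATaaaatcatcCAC
Zscan10 (chr17:23746485-23746550, plus strand): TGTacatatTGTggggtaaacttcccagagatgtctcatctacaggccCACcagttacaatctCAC
Zbtb24 (chr10:41171808-41171870, plus strand): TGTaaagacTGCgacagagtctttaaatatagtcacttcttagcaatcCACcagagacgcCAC
Zbtb17 (chr4:141020553-141020615, plus strand): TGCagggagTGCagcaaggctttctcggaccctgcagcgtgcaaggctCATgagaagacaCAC
The last lay in neither list.
Zscan4c (chr7:11595013-11595075, plus strand): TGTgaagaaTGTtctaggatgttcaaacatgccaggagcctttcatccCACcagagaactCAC

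Over the sequence coding for fingers, H3K36me3 was the more frequent mark. It reached finger sequence in 24 of the 59 genes (40.7%, 28.1 to 54.3), compared with 39.2% of the 772 autosomal protein-coding genes with a finger. H3K9me3 reached it in 7 genes (11.9%, 4.91 to 22.9), compared with 23.7% of the 772 and with 83 of 339 Zfp genes that have fingers (24.5%, 20.0 to 29.4). The genes with H3K9me3 there were Zbtb2, Zbtb7c, Zbtb16, Zbtb42, Zscan2, Zscan20 and Zkscan4. The median number of fingers was 4 in the members and 10 in the 355 Zfp genes. A gene with less finger sequence offers less to reach, and these counts of genes were not adjusted for that. H3K36me3 covered 37.7% and H3K9me3 9.71% of the finger sequence of all members, compared with 36.3% and 20.9% for Zfp genes. By family, H3K9me3 covered 5.93% of the finger sequence of Zbtb, 20.2% of Zscan and 3.27% of Zkscan genes, and H3K36me3 42.7%, 30.8% and 35.6%. The Zscan sequence includes the 5 Zscan4 copies, each with 255 bp of finger sequence and no region. Leaving them out, which was not done here, could only raise both Zscan shares, so the order of the families may depend on them. The Zscan value for H3K9me3 came from Zscan2 (724 bp, in regions of 600 bp) and Zscan20 (504 bp), and with regions of at least 1 kb alone only Zscan20 remained. None of these differences was tested.

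In 13 genes the whole finger sequence lay in H3K36me3 regions and in 3, Zbtb2, Zbtb42 and Zscan20, it lay in H3K9me3 regions (22% and 5.08% of the 59 genes). Among the 772 genes with a finger the shares were 19.4% and 10.9%, and among Zfp genes 23.6% and 9.14%. These shares were not adjusted for the number of fingers either, and few fingers are more easily covered whole. Zscan20 was the only member whose finger sequence was in both lists.

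**Figure D3:**
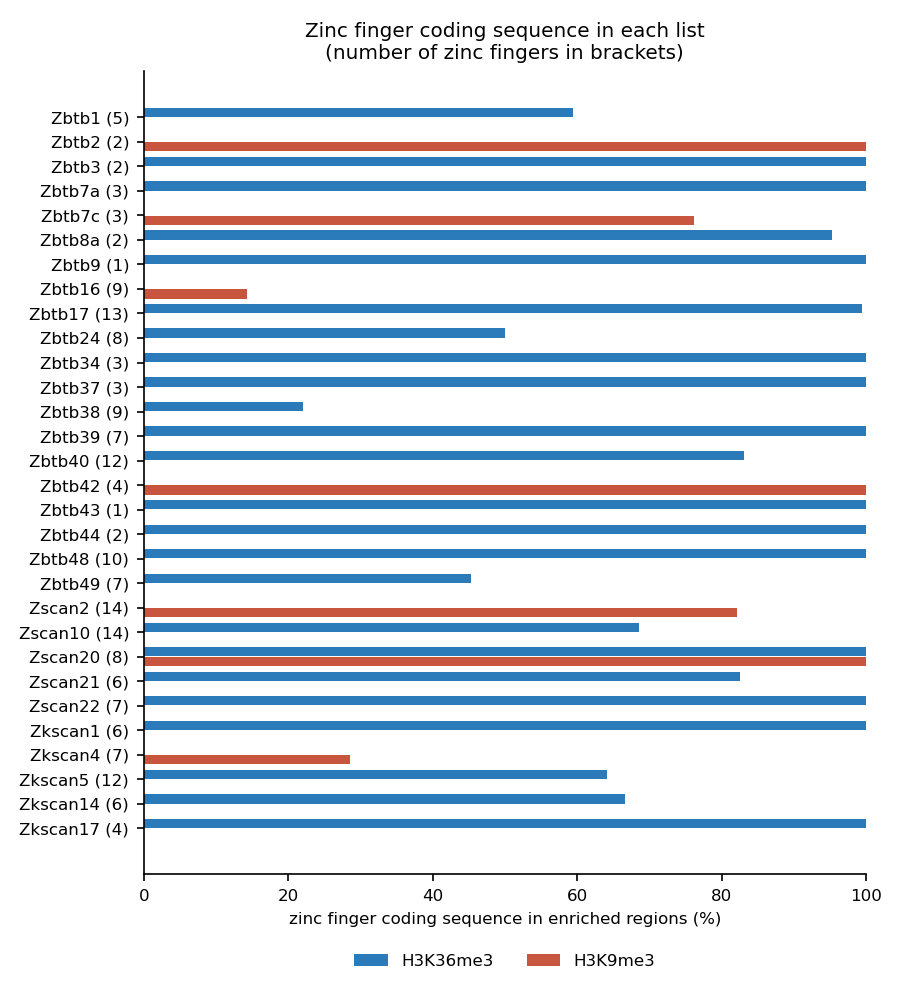
Share (%) of the zinc finger coding sequence inside enriched regions for the 30 genes with any such overlap, with the number of fingers in brackets. Blue bars are H3K36me3 and red bars H3K9me3, and Zscan20 alone carries both.

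Zscan2 had 14 fingers, and 3 H3K9me3 regions covered 2600 bp of the gene (chr7:88005806-88021402, plus strand). The last 2 of these regions lay over its fingers and took in 387 and 337 bp of their sequence. In Zkscan4 (chr13:21570776-21577376, plus strand) a single region covered 976 bp at the end of the gene, with 126 bp of finger sequence. Zbtb2, which has 2 fingers, held 1 region of 800 bp that contained the 126 bp coding for both. In none of these 3 genes was there an H3K36me3 region.

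Zbtb42 (chr12:113917039-113920958, plus strand) was the member most fully covered by H3K9me3. Of its 3920 bp, 3720 bp lay in 2 regions, the first of which ran from the gene start over all 261 bp of finger sequence. Among BTB zinc finger genes with other symbols Hic1, a tumour suppressor silenced by DNA methylation in many cancers, had a like layout. Its H3K9me3 region took up 4621 of 4955 bp, including the start and all 315 bp of finger sequence.

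Zbtb7c and Zbtb16 held the most H3K9me3. Zbtb7c (chr18:75979832-76308215, plus strand) had 31 regions with 27569 bp, and Zbtb16 (chr9:48462416-48644050, minus strand), which encodes the transcription factor PLZF of germline stem cells and innate-like T cells, had 17 regions with 17850 bp. Both genes are long, at 328384 and 181635 bp, and neither held H3K36me3. In each the widest region lay at the gene start, with 3400 bp in Zbtb7c and 5600 bp in Zbtb16. Most of the others were far into the gene and narrow, with medians over all regions of the gene of 600 and 800 bp. Finger sequence made up a small part of what was covered, 144 bp in Zbtb7c and 81 bp in Zbtb16. These were 76.2% of the finger sequence of Zbtb7c and 14.3% of that of Zbtb16. In Zbtb20 the 6 H3K9me3 regions covered 6000 bp, and all began more than 589 kb from the gene start.

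H3K9me3 was found within 1 kb of the gene start in 13 of 59 genes (22%, 12.3 to 34.7), compared with 19.7% of all genes and 16.1% of Zfp genes. Of the 13, 10 were Zbtb genes (28.6%, 14.6 to 46.3), 2 were Zscan genes (Zscan5b and Zscan30) and 1 was a Zkscan gene (Zkscan16). The Zbtb genes were Zbtb1, Zbtb4, Zbtb7c, Zbtb10, Zbtb16, Zbtb17, Zbtb25, Zbtb42, Zbtb46 and Zbtb49. They include Zbtb4, whose protein binds methylated DNA, Zbtb46, a marker of classical dendritic cells, and Zbtb17, which encodes the Myc partner Miz-1. With regions of at least 1 kb alone the counts were 5 Zbtb and 0 Zscan genes. In Zbtb4, Zbtb7c, Zbtb10, Zbtb16, Zbtb42, Zbtb46, Zbtb49 and Zkscan16 the region covered the first base of the gene. H3K36me3 within 1 kb of the start was found in 3 genes, Zbtb37, Zbtb48 and Zscan18 (5.08%, against 2.73% of all genes). In Zbtb37 that region lay wholly before the gene. This count depends on how a start is set, as among Zbtb genes it was 0 within 500 bp and 7 with the starts of all coding transcripts.

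The 250 bases before the start of Zkscan16 and Zscan4c are shown as a start with H3K9me3 and a start without either mark. They are written 5′ to 3′ on the strand of the gene in NCBIM37, with each CG in capitals. The H3K9me3 region at the start covered the last 99 bases in Zkscan16, and there was none in Zscan4c. Most bins of Zscan4c (96%) have a central sequence with more than 1 copy in the assembly. The part of this in its lack of a region was not tested. In Zkscan16 the region begins at the edge of the 200 bp bin that holds the first base of the gene. The 99 bases thus need not show how far the mark reached.
Zkscan16 (chr4:58956250-58956499, plus strand): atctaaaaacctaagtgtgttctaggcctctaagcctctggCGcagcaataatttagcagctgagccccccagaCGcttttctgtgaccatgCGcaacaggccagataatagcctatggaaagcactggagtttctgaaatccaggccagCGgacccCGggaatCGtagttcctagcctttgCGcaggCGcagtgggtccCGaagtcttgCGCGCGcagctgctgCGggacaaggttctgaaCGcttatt
Zscan4c (chr7:11590821-11591070, plus strand): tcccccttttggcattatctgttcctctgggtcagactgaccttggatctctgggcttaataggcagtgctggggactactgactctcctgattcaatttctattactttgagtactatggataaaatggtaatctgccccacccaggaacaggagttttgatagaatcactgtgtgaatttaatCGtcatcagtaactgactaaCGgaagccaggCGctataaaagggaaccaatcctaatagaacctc
These windows hold 14 and 3 CG dinucleotides, respectively. The motif searched was CG, which reads the same on both strands, and 92.6% of the windows of all autosomal protein-coding genes hold at least 1. The median was 19 for Zbtb, 4 for Zscan and 8 for Zkscan genes, compared with 9 over all genes. The Zscan value rests on the Zscan4 copies, and without them the median of the other 10 Zscan genes was 9. The 13 members with H3K9me3 at the start had a median of 21 and the other 46 a median of 9. Over all genes the medians were 14 and 7. The contrast among members mixes families, as 10 of the 13 are Zbtb genes. Within Zbtb genes the medians were 27.5 (10 genes) and 15 (25 genes). For Zscan genes they were 6.5 (2 genes) and 3 (13 genes), and for Zkscan genes 14 (1 gene) and 7 (8 genes). Zscan30, with 4 CG dinucleotides, and Zscan5b, with 9, were the members with H3K9me3 at the start and the fewest. A region within 1 kb need not cover the window itself, and the count of CG describes the sequence only.

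**Figure D4:**
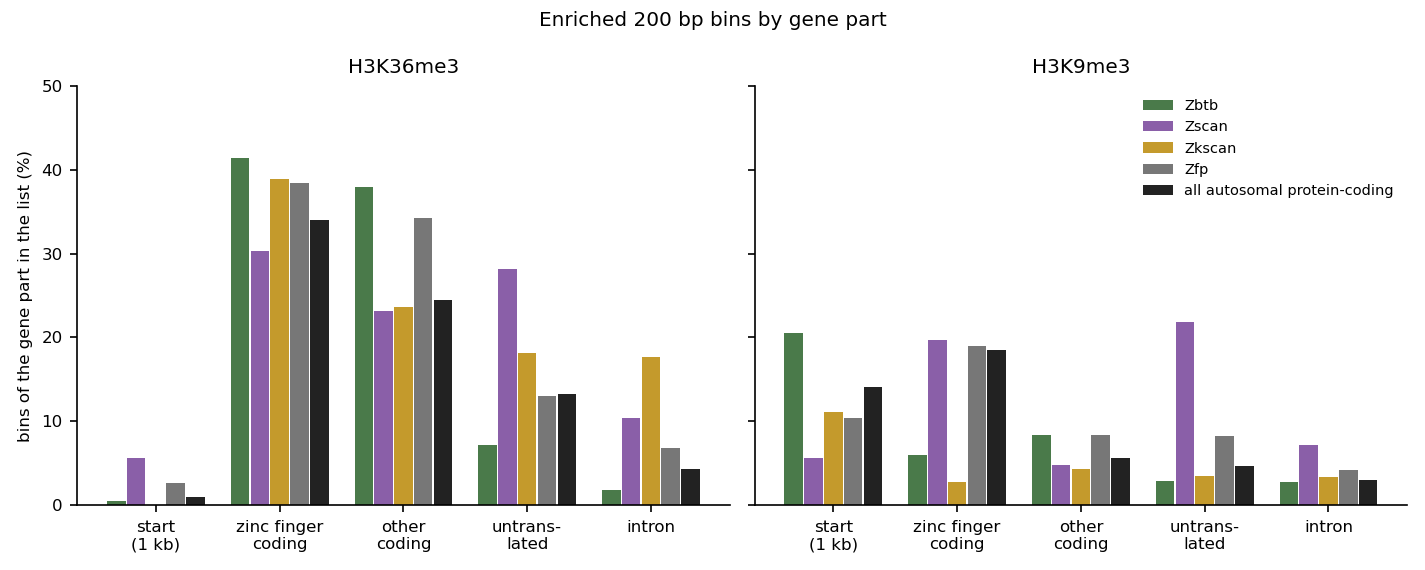
Share (%) of 200 bp bins in the H3K36me3 list (left) and the H3K9me3 list (right) by part of the gene, for each family, Zfp genes and all autosomal protein-coding genes; exons without coding or untranslated annotation are not drawn. H3K36me3 is lowest at gene starts and reaches 41.4% of finger bins in Zbtb genes, whereas H3K9me3 in Zbtb genes is highest at starts (20.5%).

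The marks were next compared by part of the gene. In Zbtb genes H3K36me3 covered 41.4% of finger coding bins, 37.98% of other coding bins, 1.83% of intron bins and 0.476% of bins within 1 kb of the start. Over all genes the same parts had 34.01%, 24.5%, 4.32% and 0.961%. H3K9me3 in Zbtb genes covered 20.5% of start bins, 5.92% of finger bins and 2.75% of intron bins, compared with 14.1%, 18.5% and 3.01% over all genes. The Zbtb shares include the long genes Zbtb7c, Zbtb16 and Zbtb20, which held no H3K36me3. Without these genes H3K36me3 took up 10.6% of all Zbtb bins in place of 3.88%, and H3K9me3 2.09% in place of 3.33%. The intron shares were not taken without them, so their position relative to all genes may depend on these genes. In Zscan genes H3K36me3 was in 28.1% of untranslated bins (Zscan20 and Zscan22), 30.4% of finger bins, 23.2% of other coding bins and 5.56% of start bins. It was also in 7 of 15 bins of other exons, all in Zscan20. H3K9me3 in these genes was in 21.9% of untranslated bins (3 genes, with 11 of the 14 bins in Zscan20), 19.6% of finger bins (Zscan2 and Zscan20), 4.80% of other coding bins and 5.56% of start bins. Over all genes untranslated bins had 13.3% H3K36me3 and 4.70% H3K9me3. The Zscan shares include the bins of the Zscan4 copies, which held no region. In Zkscan genes H3K36me3 was in 38.9% of finger bins, 17.7% of intron bins, most of them in Zkscan17, and 0% of start bins. H3K9me3 was in 2.78% of finger bins, from Zkscan4, and 11.1% of start bins, from Zkscan16. With each gene divided into 3 equal lengths, H3K36me3 covered 1.89%, 5.38% and 9.85% of bins from the first to the last, and H3K9me3 4.13%, 2.50% and 4.57%. Over all genes H3K36me3 held 3.14%, 6.12% and 8.60%, and H3K9me3 4.24%, 3.10% and 3.26%. The H3K9me3 of the last length came in large part from Zbtb7c and Zbtb20, and without these genes, left out after the values were seen, the members had 5.88%, 3.29% and 3.78% H3K9me3. Neither gene holds H3K36me3, so that leaving them out could only raise its shares, to 3.54%, 10.07% and 18.5%.

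The genes with the most H3K36me3 were of all 3 families. Zkscan17 (chr11:59299022-59340253, minus strand), which encodes an Nsd1-binding protein also called Nizp1, had 17600 bp in 3 regions, and Zkscan1 had 9200 bp. In the Zbtb family Zbtb44 had 9600 bp in 9 regions, Zbtb40 8600 bp, Zbtb43 7600 bp and Zbtb7a 7400 bp. Zbtb7a encodes LRF, a repressor of fetal globin genes. Zscan20 had 7418 bp, Zscan21 7200 bp, and Zscan10 and Zscan18 3600 bp each. Zscan10, a transcription factor of pluripotent cells, carried the mark over 613 bp of finger sequence, and Zscan18 over none. Zkscan5 had 2000 bp and Zkscan3, which encodes a repressor of autophagy genes, 1200 bp.

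Zbtb24, the gene mutated in a form of the immunodeficiency ICF syndrome, had 4 H3K36me3 regions with 3600 bp in a gene of 15197 bp. They covered 252 of the 504 bp coding for its 8 fingers, and there was no H3K9me3 region in the gene. Zbtb48, whose protein binds telomeric repeats, had 6718 of 7898 bp in H3K36me3 regions, with all 642 bp of finger sequence.

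Both marks were present in Zbtb17, Zbtb38, Zbtb49, Zscan20, Zscan21, Zkscan1 and Zkscan17. In 4 of these, or 6.78% of the 59 genes, the lists shared at least 1 bin, compared with 7.44% of all genes and 20.0% of Zfp genes (71 of 355). Zscan20 (chr4:128260783-128287342, minus strand) shared most. Its H3K9me3 region of 3400 bp at the end of the gene had 3000 bp in common with H3K36me3 regions, and all 504 bp coding for its 8 fingers were in both lists. In total 18 bins of Zscan20 were shared.

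In Zkscan1 and Zkscan17 the shared bins lay in the gene body, away from the fingers. The H3K9me3 region of Zkscan1 (chr5:138526312-138549050, plus strand) was 2000 bp wide, and 1800 bp of it were in H3K36me3 regions. In Zkscan17 a region of 1000 bp lay wholly within the widest H3K36me3 region, which spanned 9200 bp. Zbtb38, whose protein binds methylated DNA, shared 800 bp in 1 H3K9me3 region and 200 bp in another. In both Zkscan genes all finger sequence was in H3K36me3 regions alone.

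In the other 3 genes with both marks the lists were apart. Zbtb17 and Zbtb49 had H3K9me3 at the start and H3K36me3 further on, over 824 bp of finger sequence in Zbtb17 and 200 bp in Zbtb49. The H3K9me3 region of Zbtb49 also lay in the gene Lyar, and the last H3K36me3 region of Zbtb17 also in Spen. With regions in another protein-coding gene left out, H3K36me3 was in 17 Zbtb genes, H3K9me3 in 12 and both marks in 2. In Zscan21 the H3K9me3 regions lay 2.47 to 4.07 kb from the start and the H3K36me3 regions began at 7.47 kb. As each list joins WT and G34R cells, a bin in both lists need not have carried both marks in 1 cell type.

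**Figure D5:**
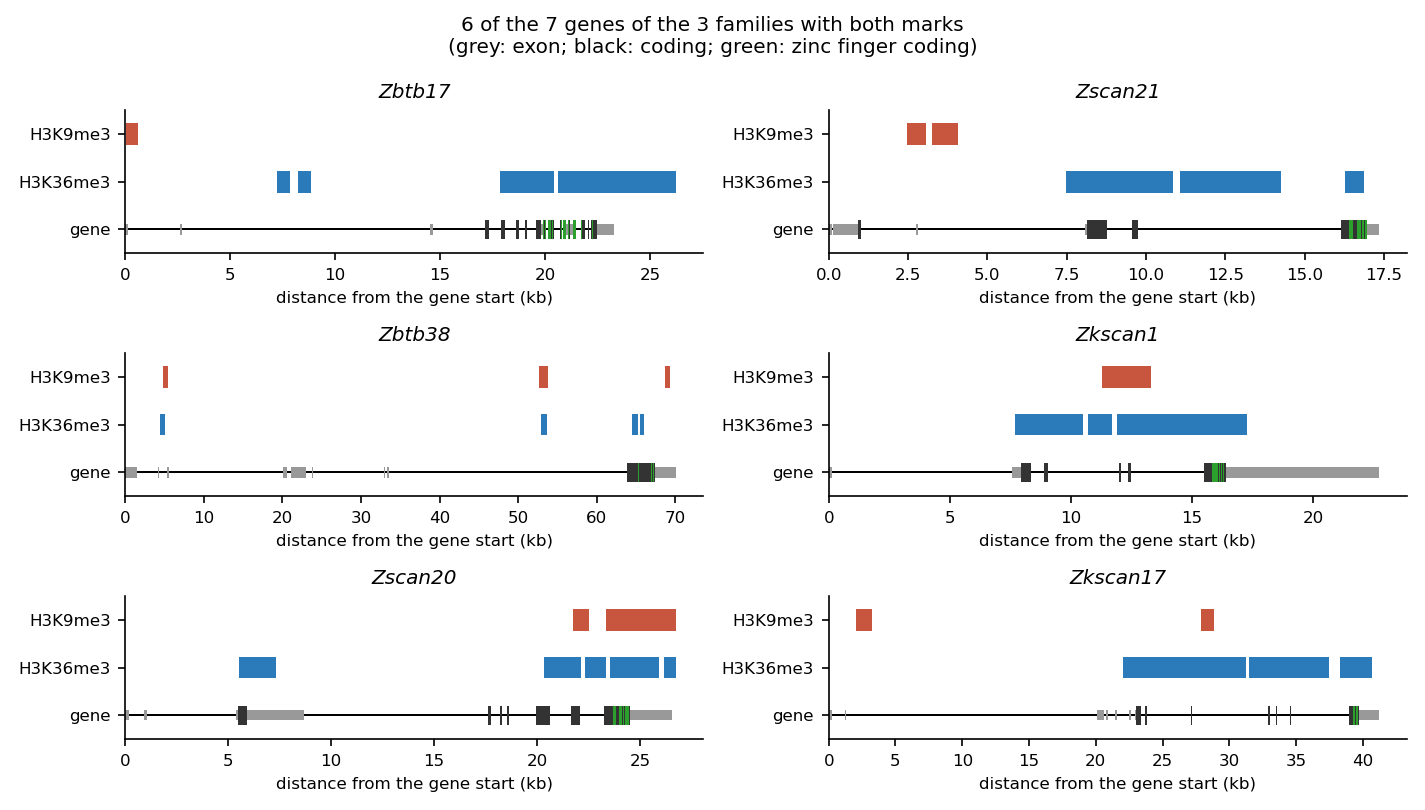
Enriched regions along 6 of the 7 genes with both marks (Zbtb49 is not drawn), by distance from the gene start (kb), with H3K9me3 in red, H3K36me3 in blue and the gene model below with finger coding sequence in green. The regions share bins in Zbtb38, Zscan20, Zkscan1 and Zkscan17, are apart in Zbtb17 and Zscan21, and meet over the fingers in Zscan20.

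Several members are neighbours, and their marks were not always alike. Zscan21 and Zkscan1 lie 9080 bp apart on chromosome 5 and each held both marks, and Zkscan5 and Zkscan14, 2679 bp apart, both held H3K36me3 alone. Zbtb8a held H3K36me3 and Zbtb8b, 47648 bp away, H3K9me3. On chromosome 13 Zscan12 held neither mark, Zkscan3 H3K36me3 and Zkscan4 H3K9me3. Zbtb1 and Zbtb25 are transcribed away from each other from starts 706 bp apart, and a single H3K9me3 region of 600 bp counted for the starts of both, although it lay inside Zbtb25 and 0 bp of it inside Zbtb1. Zbtb6 and Zbtb26, which start 50 bp apart on the same strand, held neither mark.

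Among the 15 genes without a region the longest Zbtb gene was Zbtb41, with 30623 bp and 14 fingers, and the shortest was Zbtb45, with 4887 bp. Of the Zscan genes Zscan29, with 12853 bp, was the longest and Zscan4b, with 4302 bp, the shortest. The Zkscan genes were Zkscan6, with 22065 bp, and Zkscan2, with 20934 bp. Of the 7 Zscan genes without a region 5 were the Zscan4 copies on chromosome 7, Zscan4b to Zscan4f, which are known for expression in 2-cell embryos and in a small fraction of ES cells at a time.

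The Zscan4 copies differ from the other members in how much of their sequence occurs more than once in the assembly. In the 119 bins of these 5 genes, the central 50 bases occurred more than once in the assembly in 95 (79.8%) and more than 5 times in 24 (20.2%). In the other 10 Zscan genes 5.82% of bins had more than 1 copy, in Zbtb genes 3.44% and in Zkscan genes 2.94%. More than 5 copies were found for 4.29%, 2.64% and 1.65% of these bins, respectively. By that measure Zscan30, with 15 of its 85 bins, was close to single Zscan4 copies such as Zscan4c (4 of 25), yet it held an H3K9me3 region. Between Zscan4 genes of equal coding length, 97.7% to 99.7% of coding bases were identical. The authors discarded reads with more than 5 alignments, and the part of this limit in the absence of regions from these genes was not tested. Of the bins in H3K36me3 regions of the members 0.596% had more than 1 copy, and of those in H3K9me3 regions 1.59%, compared with 4.32% of all their bins.

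Genes of the same classes under other symbols were taken from a list and are given for comparison, with the shares of all genes (35.3% H3K36me3, 41.4% H3K9me3 and 12.6% both) as the background. Of 11 symbols of BTB zinc finger genes 9 were matched in the annotation. Of the others, Zfp509 is an older symbol of Zbtb49, already a member, and Zfp131 was not analysed here. Of the 9, 7 held H3K36me3, 4 H3K9me3 and 2 (Bcl6 and Patz1) both. H3K9me3 lay over finger sequence in 2 (23.7% of all genes with a finger), Bcl6, a repressor of germinal centre B cells, with 189 bp, and Hic1. Of 5 SCAN genes 3 held H3K36me3, 3 H3K9me3 and 2 both. The latter were Peg3, an imprinted gene expressed from the paternal allele, with 6200 bp of H3K36me3 and 6332 bp of H3K9me3, and Zfp110, with 10800 and 3926 bp. In each of them 2800 bp were in both lists. H3K9me3 lay over finger sequence in 3 of the 5 SCAN genes, Mzf1, Peg3 and Zfp110.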

How the data were processed

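ChIP-seq of H3K9me3 and H3K36me3 was carried out in WT and H3.3 G34R ES cells (4 libraries, 1 per group). The submitters' processing notes name Bowtie 1.0.0, bedtools 2.20.1 and mm9. The authors discarded reads with more than 5 alignments, scaled counts in 200 bp bins, kept bins in UCSC genes above a percentile in WT or G34R cells, joined neighbours and removed regions of extreme read count. They also filtered merged regions by width, and neither list holds a region shorter than 600 bp. Sequence outside those genes was not eligible. They deposited 1 list per mark with 3 columns (chromosome, start, end), so that depth is unknown and the cell types were not compared. With a percentile threshold, the length of a list is no measure of the total amount of a mark.

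Genes came from GENCODE vM1. A symbol listed again inside a longer entry was dropped (68 cases), as for Zbtb20. A region counted for a gene from 1 bp of overlap. Bins were assigned in the order: within 1 kb of the start, finger coding, other coding, untranslated, other exon, intron. Fingers were found by the C2H2 pattern in the translated longest coding transcript, which misses degenerate fingers and can begin at an earlier cysteine, as in Zbtb42. Overlap and pattern searches were tested on simulated data. Members and gene lists were chosen with earlier results of these data known. Genes were named by rule (a bin in both lists, the 4 greatest marked lengths per family and mark, H3K9me3 over fingers, the longest and shortest without regions, Zbtb24), and others after their values were seen. Alternatives changed the minimum width, overlap, gene span, start window, finger pattern and members. Neighbouring members of the same number (the Zscan4 copies, and Zbtb8a with Zbtb8b) were also counted as 1 gene, which for Zscan4 was extended to shares, genes without a region and CG content after seeing the data. Python 3.11.15, numpy 2.4.6, scipy 1.17.1, pandas 2.3.3 and matplotlib 3.10.9 were used.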

Additional observations from a re-analysis of the deposited data

How the results depend on the processing

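No paired analysis was possible because the lists hold positions with no values per sample and there was 1 library per group. Of 128 alternative values 28 moved, by more than 1.5 times for a count or outside the 95% interval for a share. For shares of bins this interval counts 200 bp bins as independent, although each region joins several neighbouring bins. It is therefore too narrow, and a small change such as 15.1% to 12.6% for Zscan bins in H3K36me3 was labelled as moved. Leaving out regions under 1 kb moved 11 of 30 values, and leaving out the longest gene 6 of 9. Without regions under 1 kb, Zbtb genes with H3K9me3 fell from 13 to 8, with both marks from 3 to 0, with a shared bin from 1 to 0 and with H3K9me3 at the start from 10 to 5, while Zbtb bins in H3K36me3 came to 2.88% and in H3K9me3 to 1.63%. For Zscan, 3 genes then held H3K9me3, 1 held both marks, 0 had H3K9me3 at the start, 1 had it over fingers and 5.71% of bins were in it. Without the longest gene of a family, Zbtb bins were 6.27% H3K36me3 and 4.89% H3K9me3 (both then above all genes, which was not so for H3K9me3 without Zbtb7c or Zbtb16), Zscan bins 12.6% H3K36me3 with 0 genes sharing a bin, and Zkscan bins 10.1% H3K36me3 with 1 gene sharing a bin.

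Within 500 bp of the start, 0 Zbtb genes had H3K36me3 and 1 Zscan gene H3K9me3. With the starts of all coding transcripts, 7 Zbtb genes and 1 Zkscan gene had H3K36me3 and 2 Zkscan genes H3K9me3. Joining neighbours within 2 kb left 32 H3K36me3 regions in Zbtb genes, 6 in Zscan and 6 in Zkscan genes, and 6 H3K9me3 regions in Zscan genes, from 58, 14, 10 and 11. With whole regions inside the gene, 2 Zkscan genes held H3K9me3. With Zbtb8a and Zbtb8b as 1 gene, 4 Zbtb genes in place of 3 held both marks. With the Zscan4 copies as 1 gene, 3 Zscan genes in place of 7 held neither mark (27.3% in place of 46.7%). Causes were not tested beyond the construction of each alternative. Unknown depth and the authors' filter on width limit what absence from a list means.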
